A study of Rattus norvegicus with 22 samples.

Results

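NRF2, encoded by Nfe2l2, and 8 genes it is known to drive were followed across rat engineered cardiac tissues that were stretched, given a p38 inhibitor, given both, or left alone. The 9 genes (Nfe2l2, Nqo1, Srxn1, Hmox1, Gclc, Gclm, Txnrd1, Slc7a11 and Akr1b8) were found by their gene names on the array, where they had 11 of 30367 probes and made up 9 of 26441 genes. Of these, 8 passed the filter on signal, which asked for a probe well above background on at least 4 arrays, and Gclm did not. An engineered cardiac tissue is a cylinder of heart cells in a gel that is held at both ends. Their cells were taken from the ventricles of Sprague Dawley embryos (gestational day 14.5), and the tissues were grown for 7 days in all, and were treated from culture day 5 onwards for 48 h. The groups were stretch (uniaxial and cyclic at 0.5 Hz and 5% elongation) with BIRB796 at 10 µM, on 4 arrays, BIRB796 alone at the same dose on 4 arrays, stretch alone on 7 arrays and untreated control on 7 arrays. The treatment protocol gives BIRB796 as an inhibitor of the mitogen-activated protein kinase p38, while the series title names tyrosine kinase. Replicates are called biological, but no label says which culture or litter each came from, and p-values cover only the variation among the samples at hand. The tissue is a mixture of cell types in which fewer cells of a type and less RNA per cell cannot be told apart.

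NRF2 is a transcription factor that is held in the cytoplasm and marked for degradation by KEAP1 with the ubiquitin ligase scaffold CUL3. When oxidants or electrophiles modify KEAP1, NRF2 escapes, enters the nucleus, pairs with a small MAF protein and binds antioxidant response elements near its target genes, where BACH1 competes for the same sites. Its targets make and recycle glutathione and thioredoxin, detoxify quinones and break down haem, and in heart muscle they are studied for their part in resistance to oxidative injury. Because NRF2 is controlled mainly through protein stability, its mRNA level need not follow its activity.

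The 22 arrays were read in 3 scan sessions that do not cut across the groups evenly. Session 1 held stretch replicates 1 to 3 and control replicates 1 to 3, with 1 array of each group on each of 3 slides. Session 2 held stretch replicates 4 to 7 alone. Session 3 held all stretch with BIRB796 arrays, all BIRB796 arrays and control replicates 4 to 7. Its slides did not hold these groups evenly. Slide 6 held replicate 1 of both BIRB796 groups with control replicate 4, and slide 7 held control replicates 5 and 6 alone. Slide 8 held control replicate 7 with stretch with BIRB796 replicates 2 and 3. Slide 9 held BIRB796 replicates 2 to 4 with stretch with BIRB796 replicate 4. The share of gene spots well above background was lowest in session 2 (71.8% to 78.7%) and reached 93.1% in session 1. The signal at the 75th percentile was lowest on stretch replicate 7, at 846, against 2089 to 4779 on the arrays of sessions 1 and 3. Stretch replicates 4 and 5 differed by less than the noise between repeated spots and entered as their mean, as 1 sample, so 21 samples were fitted, with 6 for stretch. All 12 markers of cardiomyocytes on the list used were above background on every array.

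A level below is the log2 signal of a gene's probe minus the 75th percentile of that array, so that 0 is a signal equal to the percentile. Levels of different probes cannot be set against each other. Differences are on the same log2 scale with the standard error (SE) of a limma fit of all 4 groups with a term for the scan session, and a gene is called where its p, adjusted by Benjamini-Hochberg over all 23476 genes tested, is under 0.05. With the session as a term, stretch is compared with control only within session 1, and stretch with BIRB796 is compared with stretch only by way of the controls. A second fit used a term for the array set, which separates session 1 from sessions 2 and 3 together and so also sets the stretch arrays of session 2 against the controls of session 3.

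The probes decide which genes could be read, and the first 30 bases of 5 of them are shown for the genes that the results below turn on. They are given 5′ to 3′ as the array files list them, with the position of the whole 60-base probe in rat build rn4 as the files give it. The probe of Akr1b8 covers a longer stretch of the genome than its own length.
Srxn1, chr3:142462543-142462602: aaagcactttagcaggtcaaccaggactca
Nqo1, chr19:37251727-37251786: ttcaagaggagcagaaaaagaacaagtttg
Gclc, chr8:82762574-82762633: gaatagtctgcatcctgcttgctttctgta
Akr1b8, chr4:61724364-61725032: acgccagcacgtatacaggagaacattcag
Gclm, chr2:218915215-218915274: atatatttcctttatttttatgagtaatag
The Gclm probe is poor in G and C, which made up 15.0% of its bases, against 45.0% in the Srxn1 and Nqo1 probes and 51.7% in the Akr1b8 probe. Gclm codes for the modifier subunit of glutamate-cysteine ligase, which makes the first step of glutathione synthesis. Its probe was above background on 0 of 22 arrays, with processed signals from 1.52 to 7.98, where the lowest signal called above background lay between 5.86 and 35.6 on the arrays. No level and no difference between groups is therefore given for Gclm.

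The promoters, 250 bases before to 50 bases after each gene start in RefSeq (build GRCr8), were searched on both strands for the core of the antioxidant response element, TGACNNNGC, and for the AP-1 site TGAGTCA. The core and the site can overlap, since they share letters. A promoter was found for 8 of the 9 genes, with 2 promoters for Txnrd1. The core was present for 3 genes (Gclm, Txnrd1 and Nfe2l2) and in 12.1% of all 33469 promoters, and the AP-1 site for 1 gene (Srxn1) and in 4.63% of all promoters. The 210 bases from 200 before to 10 after the start are printed for the 3 genes whose match lies before the start or that hold an AP-1 site, with the matches in capitals.
Srxn1, GRCr8 chr3:161064612-161064821, + strand: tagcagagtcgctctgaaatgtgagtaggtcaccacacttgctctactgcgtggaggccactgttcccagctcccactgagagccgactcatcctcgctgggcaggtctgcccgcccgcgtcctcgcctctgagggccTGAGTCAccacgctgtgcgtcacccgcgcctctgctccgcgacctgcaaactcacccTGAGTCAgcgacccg
Gclm, GRCr8 chr2:213031935-213032144, + strand: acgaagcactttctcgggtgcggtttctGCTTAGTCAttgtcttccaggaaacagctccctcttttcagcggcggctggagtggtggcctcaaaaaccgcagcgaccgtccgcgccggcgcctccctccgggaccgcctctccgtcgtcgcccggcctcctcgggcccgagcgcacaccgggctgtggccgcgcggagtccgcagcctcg
Txnrd1, GRCr8 chr7:22755895-22756104, - strand: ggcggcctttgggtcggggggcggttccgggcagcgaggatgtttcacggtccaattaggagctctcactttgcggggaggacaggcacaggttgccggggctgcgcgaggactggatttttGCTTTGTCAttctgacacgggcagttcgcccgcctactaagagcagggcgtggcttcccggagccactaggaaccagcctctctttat
Counted from the gene start, the match lies at -172 to -164 in Gclm and at -78 to -70 in Txnrd1, and both are read on the strand opposite to the gene. In Srxn1 the first AP-1 site lies at -62 to -56, and the second spans the start. The second site is followed by gc, so that its letters differ from the searched core in 1 base. Forms of the element other than TGACNNNGC were not searched, so the count of the core does not cover them. A match describes the letters in this window and not a bound site.

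Under stretch, the redox enzymes Srxn1 and Nqo1 had the largest differences from control among the 8 measured genes, at 1.36 ± 0.58 (SE), or 2.56-fold higher, for Srxn1 and 1.25 ± 0.51 (SE), or 2.37-fold higher, for Nqo1. Neither passed the threshold over all genes. In all, 0 of the 8 genes and 0 of 23476 genes (0.0%) were called for stretch against control with the scan session as a term. Nqo1 had an unadjusted p of 0.0242 and Srxn1 of 0.0304, and both had an adjusted p of 1.0. Before adjustment 2 of the 8 and 712 of 23476 genes (3.03%) were under 0.05. With the array set term, in which 1840 of 23476 genes were called (7.84%), the calls were 3 of the 8, all higher: Srxn1, Nqo1 and Gclc. Over the 8 genes the median difference was 0.31 with the session term, where the median of all genes was 0.05, and 0.78 with the array set term, where the median of all genes was 0.11.

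Srxn1 codes for sulfiredoxin, which restores overoxidised peroxiredoxins. In session 1 its levels were 1.51, 0.57 and 1.51 in stretch, against -0.32, 0.06 and -0.21 in control. In session 2 stretch gave 0.66 (replicates 4 and 5 averaged), 1.96 and 4.40, and control gave -0.64, -0.58, -0.55 and -0.55 in session 3. Every stretch sample lay above every control sample, within session 1 and over all sessions. Of the 8 genes, 2 (Srxn1 and Gclc) had this separation over all samples, as did 143 of 23315 genes (0.613%), and 3 (Srxn1, Hmox1 and Gclc) had it within session 1, as did 1096 of 23443 genes (4.68%). The array set term gave Srxn1 an adjusted p of 0.0142 at a difference of 2.19 ± 0.42 (SE). Without stretch replicate 7, the sample at 4.40, that difference was 1.61 with an adjusted p of 0.00346, and Srxn1 was called without each of the 21 samples in turn. All of these fits still set stretch of session 2 against the controls of session 3. A shift between those sessions therefore enters the difference whichever sample is left out.

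Nqo1 codes for a reductase that turns quinones into hydroquinones without a radical in between. Stretch had 1.49, 0.60 and 1.91 in session 1, and control had 0.21, 0.85 and -0.79. On slide 2 the order was turned, with 0.60 in stretch and 0.85 in control. In session 2 stretch had -0.09, 1.04 and 2.14, while the controls of session 3 were close together at -0.58, -0.71, -0.90 and -0.67. The groups overlapped in session 1 and over all samples. With the array set term Nqo1 differed by 1.51 ± 0.34 (SE) with an adjusted p of 0.0213, and the call was lost without stretch replicate 6, control replicate 5 or control replicate 6 (highest adjusted p 0.0549).

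Gclc codes for the catalytic subunit of glutamate-cysteine ligase. It had 0.98, 0.94 and 1.31 in stretch and 0.62, 0.86 and 0.71 in control in session 1, without overlap, and the difference of 0.34 ± 0.21 (SE) had a p of 0.127 before adjustment. In session 2 stretch had 0.87, 1.28 and 2.00, and control had 0.64, 0.66, 0.70 and 0.39 in session 3. Over all samples the separation was thin, with the lowest stretch sample at 0.87 and control replicate 2 at 0.86. That stretch sample is the mean of replicates 4 and 5, and the array of replicate 5 alone was at 0.86. The array set term gave 0.58 ± 0.15 (SE) with an adjusted p of 0.0342. That call was lost without stretch replicate 6 or any 1 of control replicates 4 to 7 (highest adjusted p 0.0739).

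Hmox1 codes for haem oxygenase, which splits haem into biliverdin, iron and carbon monoxide. Its levels in session 1 were 1.32, 1.27 and 0.92 in stretch and 0.61, 0.57 and 0.87 in control. The groups did not overlap, although stretch replicate 3 and control replicate 3, which shared a slide, differed by 0.05 alone. Stretch had 1.14, 1.78 and 3.57 in session 2, against 1.06, 0.91, 0.89 and 0.72 in the controls of session 3. The difference was 0.49 ± 0.39 (SE) with the session term and 0.90 ± 0.28 (SE) with the array set term, where the adjusted p was 0.0508. Hmox1 was read from 10 spots on each array, whose SD was 0.048 at the median array and 0.065 at most. This covers the noise between spots and not the variation between tissues.

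Txnrd1, which codes for the thioredoxin reductase of the cytosol, had -0.15, -0.34 and 0.01 in stretch and -0.42, 0.08 and -0.95 in control in session 1, with overlap. Its difference was 0.27 ± 0.27 (SE) by the brighter of its 2 probes and 0.30 ± 0.36 (SE) by the other. Slc7a11 codes for the transport subunit of the antiporter that imports cystine for glutathione synthesis. It had -2.07, -2.28 and -2.84 in stretch and -2.60, -2.24 and -2.60 in control in session 1, with a difference of 0.09 ± 0.30 (SE). A second Slc7a11 probe was above background on 2 of 22 arrays, 1 of BIRB796 and 1 of stretch with BIRB796, and was not used. For both genes the groups could not be set apart within session 1. In session 2 Txnrd1 had -0.75, -0.28 and 0.47 in stretch, against -1.14, -1.07, -1.20 and -1.30 in the controls of session 3. The array set term gave Txnrd1 a difference of 0.65 ± 0.20 (SE) with an adjusted p of 0.0504. Slc7a11 had -2.51, -1.27 and -2.66 in stretch in session 2 and -3.02, -2.87, -2.99 and -2.54 in those controls. Its array set difference was 0.42 ± 0.21 (SE) with an adjusted p of 0.196.

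Nfe2l2 itself had 3.04, 2.64 and 3.30 in stretch and 2.68, 2.92 and 2.72 in control in session 1. The difference was 0.22 with a 95% confidence interval from -0.20 to 0.64. In session 2 stretch had 3.07, 3.11 and 3.87, and control had 3.01, 3.04, 3.13 and 2.93 in session 3. The array set term gave 0.28 ± 0.14 (SE) with an adjusted p of 0.18, so the mRNA of the regulator passed the threshold in neither fit.

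Akr1b8 codes for an aldo-keto reductase, an enzyme type that reduces reactive aldehydes. It had -0.33, -1.25 and 0.60 in stretch and -1.42, 0.29 and 0.38 in control in session 1, which gave a difference of -0.07 ± 0.66 (SE). In session 2 stretch had 0.17, -0.34 and 2.14, and the controls of session 3 had -1.42, -1.22, -1.05 and -3.14. Control ran from 0.38 at the highest to -3.14 at the lowest sample, and the sign of the stretch difference depended on the sessions compared. Sessions 2 and 3 taken alone, where session and group cannot be told apart, gave 2.36 ± 0.58 (SE), and the array set term gave 1.23 ± 0.52 (SE).

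**Figure D1:**
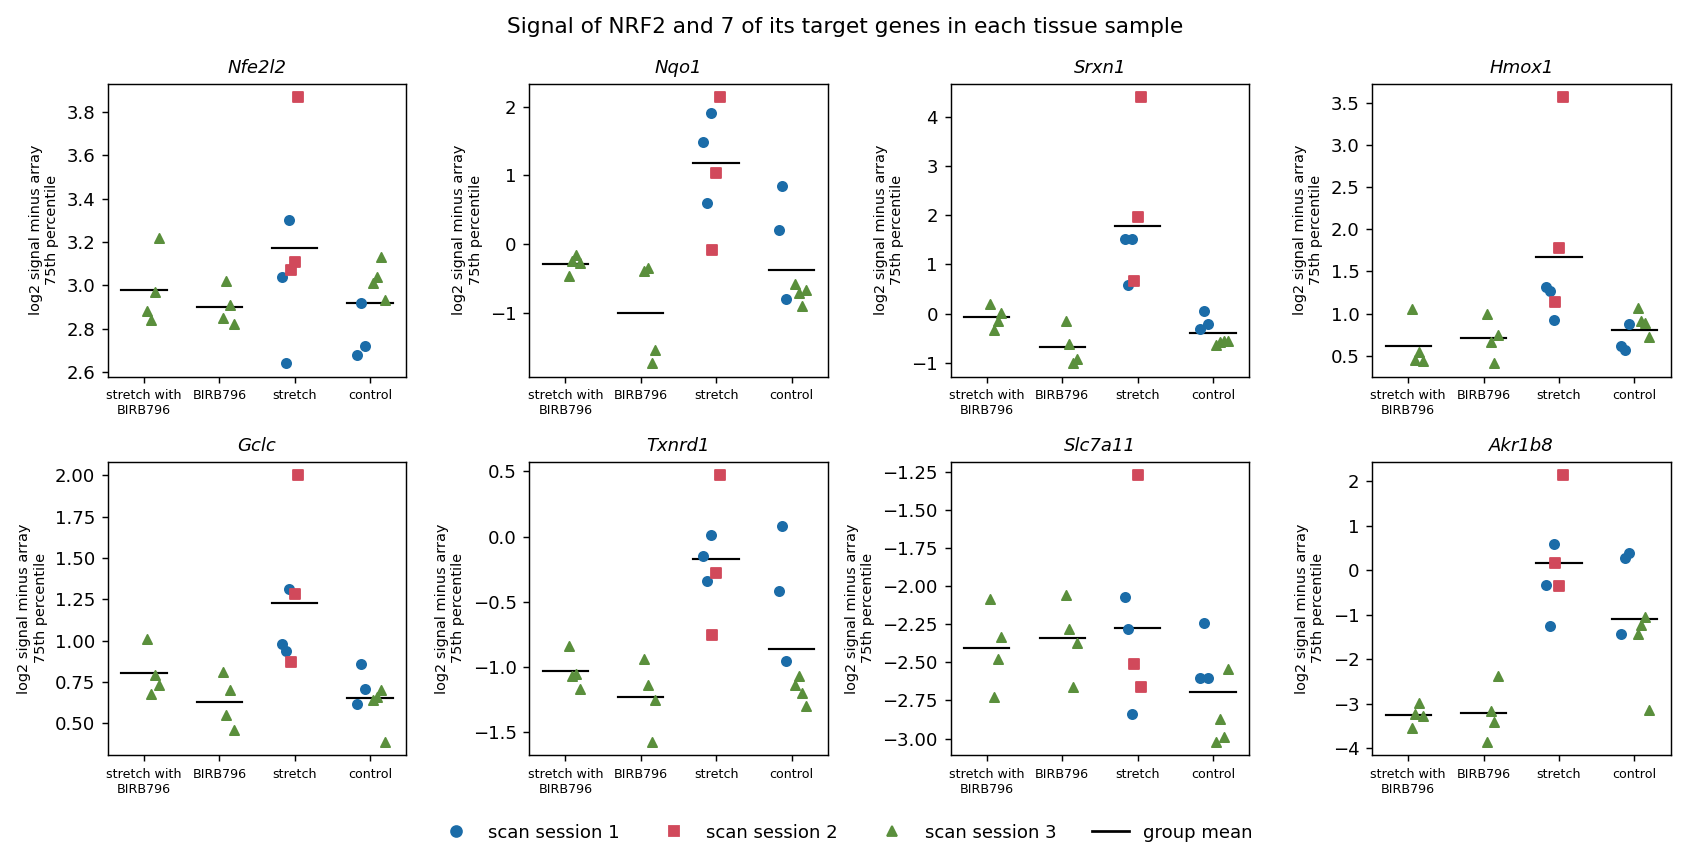
Levels of Nfe2l2 and 7 of its targets in each of 21 samples, by group on the x axis, with log2 signal minus the array's 75th percentile on the y axis, a line for the group mean, and the colour and shape of a point for the scan session. Srxn1 and Gclc show no overlap between stretch and control, although for Gclc the nearest points lie at 0.87 and 0.86. The topmost stretch point of Srxn1, at 4.40, and of Hmox1, at 3.57, is replicate 7. The group means of Akr1b8 are lowest in the groups given BIRB796.

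The slides of session 1 give the stretch and control arrays that were processed side by side. On all 3 slides stretch was higher for Srxn1 (by 1.84, 0.51 and 1.72 on slides 1, 2 and 3), Hmox1 (by 0.71, 0.71 and 0.05) and Gclc (by 0.36, 0.08 and 0.59). On 2 of 3 slides stretch was higher for Nqo1, Nfe2l2, Txnrd1 and Akr1b8, and for each of these 4 genes slide 2 ran the other way. Slc7a11 was higher in stretch on 1 slide. In a limma fit of session 1 alone with the slide as a block, the Srxn1 difference stayed at 1.36, with an SE of 0.31. Its unadjusted p was 0.00484 and its adjusted p 0.973. Session 1 alone without the block gave an SE of 0.30 and an unadjusted p of 0.00371, so the smaller SE did not come from the block.

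**Figure D2:**
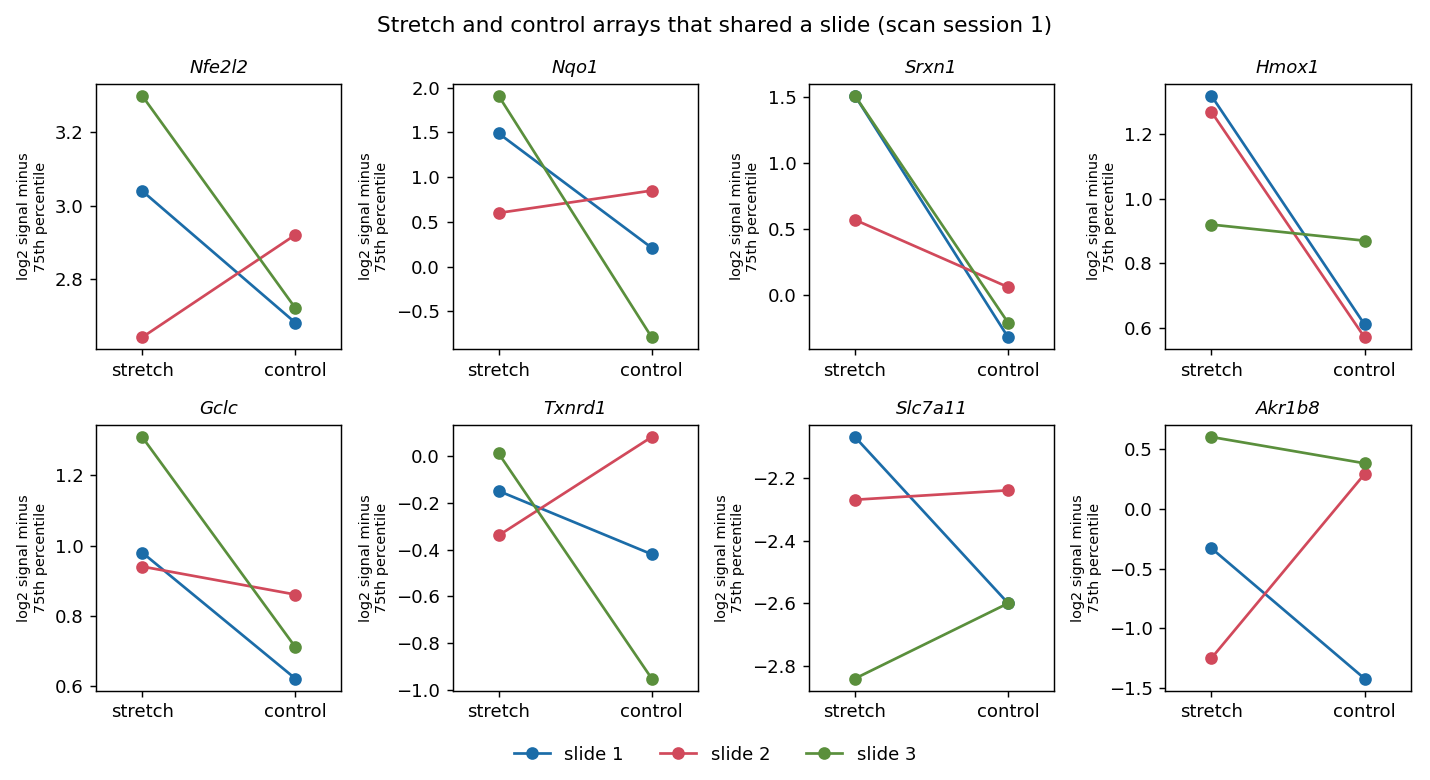
Levels (log2 signal minus the array's 75th percentile, y axis) of the stretch and control arrays of scan session 1, joined by a line where they shared a slide. The lines fall towards control on all 3 slides for Srxn1, Hmox1 and Gclc, and slide 2 runs the other way for Nqo1, Nfe2l2, Txnrd1 and Akr1b8.

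Markers of other cell types also differed in level. Of 17 macrophage and leukocyte markers 16 were tested, and all 16 had a negative difference for stretch with the session term (median -0.63), although 0 passed the threshold. Their summed signal, in multiples of the 75th percentile, was 41.6 to 84.1 in stretch and 52.3 to 138 in control in session 1, and Cd163 was above background on 0 arrays. All 8 smooth muscle markers had a positive difference (median 0.47, 0 called), with sums of 33.6 to 55.9 in stretch and 19.8 to 36.7 in control. Erythroid markers, which bear on haem genes such as Hmox1, had sums of 1.66 to 2.94 in stretch and 1.87 to 2.31 in control in the same session. Differences were negative for 9 of 10 endothelial markers (median -0.27), 7 of 8 epicardial and mesothelial markers (median -0.45) and 6 of 10 fibroblast markers (median -0.17), with 0 called. In the fit with the array set term, which called Srxn1, Nqo1 and Gclc, markers of other cell types were called too. Of the macrophage and leukocyte markers 7 of 16 fell (median -0.95), as did 3 of 10 endothelial (median -0.76), 3 of 10 fibroblast (median -0.29) and 1 of 8 epicardial and mesothelial markers (median -0.74). In that fit 1 of 11 erythroid markers rose (median 0.18), and 0 of 8 smooth muscle markers were called (median 0.59). Of 12 cardiomyocyte markers 8 had a positive difference with the session term (median 0.1, 0 called). With the array set term 2 of 12 were positive (median -0.21), with 1 called higher and 1 lower. Their sum was 656 to 867 in stretch and 565 to 878 in control in session 1. It was 384 to 1180 in stretch in session 2 and 880 to 1210 in the controls of session 3. The part of these cells in the differences of the NRF2 genes was not tested.

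With BIRB796 alone, Akr1b8 was the gene of the 8 that stood furthest below control, at -1.49 ± 0.57 (SE), or 2.81-fold lower, and Slc7a11 the one furthest above, at 0.51 ± 0.26 (SE), or 1.43-fold higher. Neither passed the threshold (adjusted p 0.611 and 0.836), and 0 of the 8 genes and 0 of 23476 genes (0.0%) were called. Before adjustment Akr1b8 had a p of 0.0185. It was 1 of the 8 under 0.05 before adjustment, as were 1457 of 23476 genes (6.21%). The median difference of the 8 was -0.11, with -0.02 for all genes. In a fit of session 3 alone 418 of 23476 genes were called (1.78%) and 0 of the 8, where Akr1b8 had an adjusted p of 0.102 and Slc7a11 of 0.129. A fit with a mean-variance trend and array weights, in which 2663 genes were called (11.3%), called both, with Akr1b8 lower by 1.56 ± 0.37 (SE) at an adjusted p of 0.00965 and Slc7a11 higher by 0.56 ± 0.15 (SE) at an adjusted p of 0.0199.

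Akr1b8 had -3.85, -3.16, -3.40 and -2.38 in BIRB796, against -1.42, -1.22, -1.05 and -3.14 in the controls of session 3. The controls at -1.42 to -1.05 lay above all 4 BIRB796 samples, and control replicate 7, at -3.14, lay among them. Only slide 6 held both a control and a BIRB796 array, so slide and group are largely not told apart here. With the slide as a random block the difference was -1.43 ± 0.59 (SE). Without control replicate 7 the difference with the session term was -1.97. Slc7a11 had -2.06, -2.28, -2.66 and -2.37 in BIRB796 and -3.02, -2.87, -2.99 and -2.54 in those controls, and the groups overlapped by way of control replicate 7 again.

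The other 6 genes differed between BIRB796 and control by -0.29 to 0.03. Nqo1 lay in pairs in BIRB796, with -0.39 and -0.35 in replicates 1 and 2 and -1.73 and -1.53 in replicates 3 and 4, against -0.90 to -0.58 in control. Srxn1 had -0.16, -0.62, -1.01 and -0.92 in BIRB796 and -0.64 to -0.55 in control, and its difference was -0.10 with a 95% confidence interval from -1.15 to 0.96. Nfe2l2 had 2.85, 3.02, 2.91 and 2.82 in BIRB796 and 2.93 to 3.13 in control, a difference of -0.13 with a 95% confidence interval from -0.49 to 0.24. Hmox1 differed by -0.19 ± 0.34 (SE), Txnrd1 by -0.05 ± 0.23 (SE) and Gclc by 0.03 ± 0.19 (SE). For 0 of the 8 genes did BIRB796 lie wholly above or wholly below the controls of its session, as 1144 (4.90%) and 1615 (6.92%) of 23325 genes did.

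Stretch in the presence of BIRB796 was compared with BIRB796 alone within session 3. Nqo1 and Srxn1 again had the largest differences of the 8, at 0.72 ± 0.44 (SE) and 0.61 ± 0.50 (SE), or 1.64-fold and 1.52-fold higher. No gene was called: 0 of the 8 and 0 of 23476 (0.0%), with 0 of the 8 and 440 of 23476 (1.87%) at an unadjusted p under 0.05. Nqo1 had -0.46, -0.24, -0.16 and -0.27 in stretch with BIRB796. The value of -0.46 lay between the pairs seen in BIRB796 alone, and the other 3 lay above all 4 BIRB796 samples. Srxn1 had 0.20, -0.34, -0.16 and 0.02 in stretch with BIRB796, against -0.16, -0.62, -1.01 and -0.92 in BIRB796, and the groups overlapped. In a fit of session 3 alone, where 19 genes were called (0.0809%), Srxn1 differed by 0.61 ± 0.18 (SE) with an unadjusted p of 0.00557 and an adjusted p of 0.35. The remaining 6 genes differed by -0.09 to 0.19. For 0 of the 8 genes were all stretch with BIRB796 samples above or below all BIRB796 samples, as 1043 (4.45%) and 428 (1.83%) of 23412 genes were.

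Against the controls of session 3, stretch with BIRB796 had Akr1b8 at -1.55 ± 0.57 (SE), or 2.93-fold lower, with an adjusted p of 0.364. Its 4 levels, -3.54, -3.24, -2.98 and -3.28, lay within a narrow span, and control replicate 7, at -3.14, lay in it. Calls numbered 0 of the 8 and 18 of 23476 genes (0.0767%), and at an unadjusted p under 0.05 there was 1 of the 8 (Akr1b8) and 2196 of 23476 genes (9.35%). Srxn1, at 0.51 ± 0.50 (SE), and Nqo1, at 0.43 ± 0.44 (SE), were higher in every stretch with BIRB796 sample than in every control sample of the session, 2 of the 8 genes, which 2085 of 23321 genes were (8.94%). The fit of session 3 alone called 1780 genes (7.58%) and 0 of the 8, and came closest for Akr1b8, with an adjusted p of 0.0579. The fit with trend and weights called Akr1b8, at -1.86 ± 0.37 (SE) with an adjusted p of 0.00195, and Hmox1, at -0.37 ± 0.12 (SE) with an adjusted p of 0.0306, among 4650 genes (19.8%). Slc7a11 was at 0.45 ± 0.26 (SE), close to its value under BIRB796 alone. Comparisons with the same controls share those samples, so the likeness of the BIRB796 values is not independent.

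All 8 smooth muscle markers had a positive difference from control in stretch with BIRB796 (median 1.14) and 7 of 8 in BIRB796 (median 1.15), and all 16 macrophage and leukocyte markers a negative one in both (median -0.71 and -0.45). All 10 endothelial markers were negative in both groups given BIRB796 as well (median -1.05 with stretch, where 1 was called, and -0.47 without). So were all 8 epicardial and mesothelial markers (median -1.02 with stretch and -1.34 without, 0 called), whose sum was 3.06 to 5.84 in stretch with BIRB796 and 2.89 to 6.36 in BIRB796, against 6.32 to 9.93 in the controls of session 3. The sum over macrophage and leukocyte markers was 108 to 125 in stretch with BIRB796 and 123 to 167 in BIRB796, against 119 to 226 in the controls of session 3, and the sum over smooth muscle markers was 44.3 to 72.5 and 40.4 to 57.7, against 26 to 35.9. Their part in the Akr1b8 difference was not tested.

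No session held both stretch with BIRB796 and stretch alone. Over all samples, 4 of the 8 genes (Nqo1, Srxn1, Txnrd1 and Akr1b8) were lower in every stretch with BIRB796 sample than in every stretch sample, as were 1870 of 23424 genes (7.98%). For Txnrd1 this held by its brighter probe alone. Its other probe, also above background on all 22 arrays, had -3.89 to -3.73 in stretch with BIRB796 and -4.31 to -1.72 over the stretch arrays, with overlap. The difference by that probe with the session term was 0.04 ± 0.48 (SE). Untreated control was also lower in session 3 than in session 1 for Nqo1, Srxn1, Txnrd1 and Akr1b8. The control means were 0.09 in session 1 and -0.72 in session 3 for Nqo1, and -0.16 and -0.58 for Srxn1. For Txnrd1 they were -0.43 and -1.18, and for Akr1b8 -0.25 and -1.71. By way of the controls of each session, the differences were -1.48 ± 0.88 (SE) for Akr1b8, -0.85 ± 0.76 (SE) for Srxn1, -0.81 ± 0.67 (SE) for Nqo1, -0.76 ± 0.52 (SE) for Hmox1, and -0.27 to 0.36 for the other 4 genes. With this term 0 of the 8 and 0 of 23476 genes (0.0%) were called, and at an unadjusted p under 0.05 there were 0 of the 8 and 528 genes (2.25%). The array set term, in which 235 genes were called (1.00%), called Akr1b8, at -3.27 ± 0.66 (SE) with an adjusted p of 0.0348. Akr1b8 was then called in 11 of 21 fits that left out 1 sample each. The samples whose removal ended the call were the 4 of stretch with BIRB796, BIRB796 replicate 2, stretch replicates 4 and 5 (as 1 sample), 6 and 7, and control replicates 4 and 5, with adjusted p up to 0.107.

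Whether BIRB796 changed the response to stretch was tested as the difference between the stretch effect with BIRB796 and the stretch effect without it. The difference was below 0 for 7 of the 8 genes, where 51.2% of all genes were above 0. The 8 values come from the same samples, so their signs are not independent. The difference was -0.75 for Srxn1 (95% confidence interval -2.36 to 0.85), -0.57 for Hmox1 (-1.66 to 0.52) and -0.53 for Nqo1 (-1.93 to 0.88). It was -0.14 for Nfe2l2 (-0.70 to 0.41) and 0.01 for Akr1b8 (-1.83 to 1.86). With the session term all intervals given here include 0 and are wide enough to hold a loss of the whole stretch difference of Srxn1 and Nqo1 as well as none. Calls numbered 0 of the 8 and 0 of 23476 genes (0.0%), and 0 of the 8 and 322 genes (1.37%) had an unadjusted p under 0.05. With the array set term the difference was below 0 for all 8 genes, where 45.7% of all genes were above 0. It was -1.58 ± 0.68 (SE) for Srxn1, -1.29 ± 0.84 (SE) for Akr1b8, -0.99 ± 0.45 (SE) for Hmox1 and -0.79 ± 0.55 (SE) for Nqo1. The median of the 8 was then -0.64, against -0.16 with the session term, while that of all genes was -0.05, against 0.01. The limma fit gave Srxn1 an unadjusted p of 0.0319 and Hmox1 of 0.0391, and both had an adjusted p of 0.692. Before adjustment 2 of the 8 and 1640 of 23476 genes (6.99%) were under 0.05, and 0 genes (0.0%) were called.

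**Figure D3:**
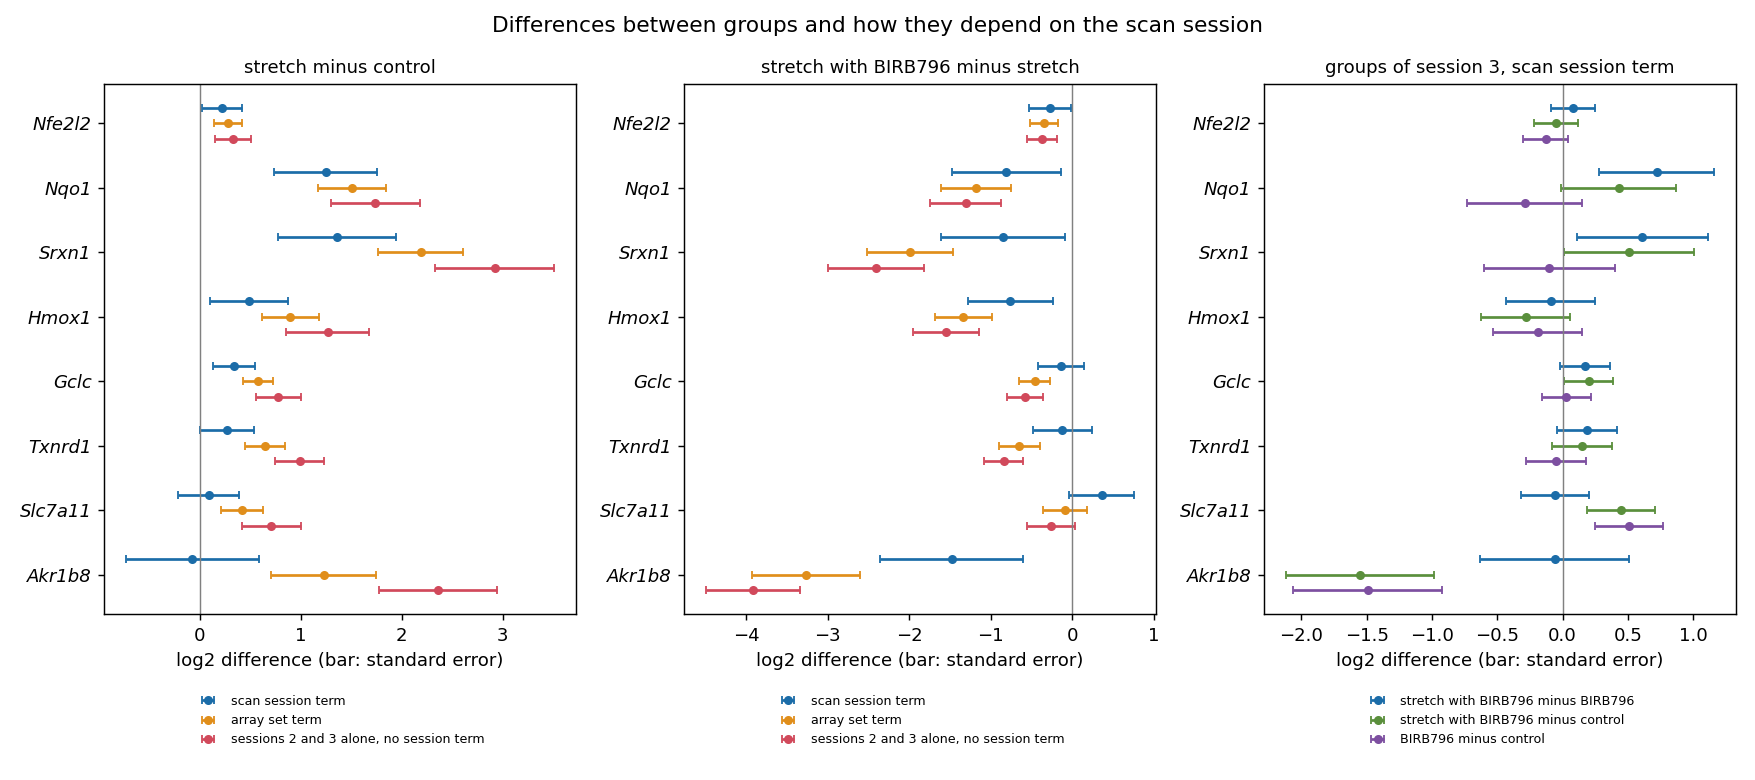
Log2 differences (x axis, bars are SE of the limma fit) of the 8 measured genes (y axis) for stretch minus control and for stretch with BIRB796 minus stretch under 3 treatments of the scan session, and for the 3 comparisons within session 3. Srxn1 lies at 1.36, 2.19 and 2.92 for stretch minus control, Akr1b8 lies between -0.07 and 2.36 depending on the sessions used, and both BIRB796 groups lie about 1.5 below control for Akr1b8.

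The other genes of the pathway were read from a list of 56, of which 55 were tested. With the session term 0 of the 55 were called in each of the 6 comparisons. For stretch against control 39 of 55 had a positive difference (70.9%) with a median of 0.12, where 58.8% of all genes were positive. The smallest unadjusted p were those of Me1, a malic enzyme that makes NADPH, at 0.63 ± 0.24 (SE), and of Gstm2, a glutathione transferase, at -0.41 ± 0.17 (SE). With the array set term 8 of 55 rose and 1 fell, against 978 and 862 of 23476 genes (7.84% in all). By smallest p the leading ones were Gstp1, a glutathione transferase, at 1.13 ± 0.26 (SE) with an adjusted p of 0.0217, Gss, glutathione synthetase, at 0.97 ± 0.24 (SE) with an adjusted p of 0.0272, and Ephx1, an epoxide hydrolase, at 0.92 ± 0.23 (SE) with an adjusted p of 0.0272. The gene that fell was Cul3, at -0.78 ± 0.20 (SE) with an adjusted p of 0.033. In session 1 alone these were smaller, with 0.59 ± 0.34 (SE) for Gstp1, 0.32 ± 0.29 (SE) for Gss, 0.12 ± 0.22 (SE) for Ephx1 and -0.47 ± 0.29 (SE) for Cul3 in the fit with the session term.

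Keap1, Bach1 and the small Maf genes passed in neither fit for stretch against control, whereas Cul3 passed with the array set term, as given above. With the session term Keap1 differed by 0.17 ± 0.21 (SE), Bach1 by 0.08 ± 0.34 (SE), and the small Maf genes Mafk by 0.39 ± 0.39 (SE), Maff by 0.32 ± 0.58 (SE) and Mafg by 0.21 ± 0.25 (SE). With the array set term Keap1 was at 0.49 ± 0.16 (SE) with an adjusted p of 0.0582, Bach1 at 0.63 ± 0.25 (SE) and Maff at 1.32 ± 0.44 (SE).

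With BIRB796 against control, 20 of 55 had a positive difference (36.4%, against 45.3% of all genes), with a median of -0.03. Keap1 differed by 0.12 ± 0.18 (SE) and Bach1 by -0.07 ± 0.29 (SE). For stretch with BIRB796 against BIRB796, 45 of 55 were positive (81.8%, against 61.3% of all genes) with a median of 0.09, Keap1 was at 0.08 ± 0.18 (SE) and Bach1 at 0.42 ± 0.29 (SE). For stretch with BIRB796 against stretch, the array set term called 1 of 55 and 235 of 23476 genes (1.00%). The gene was Blvrb, biliverdin reductase B, which fell by 0.70 ± 0.15 (SE) with an adjusted p of 0.0437.

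**Figure D4:**
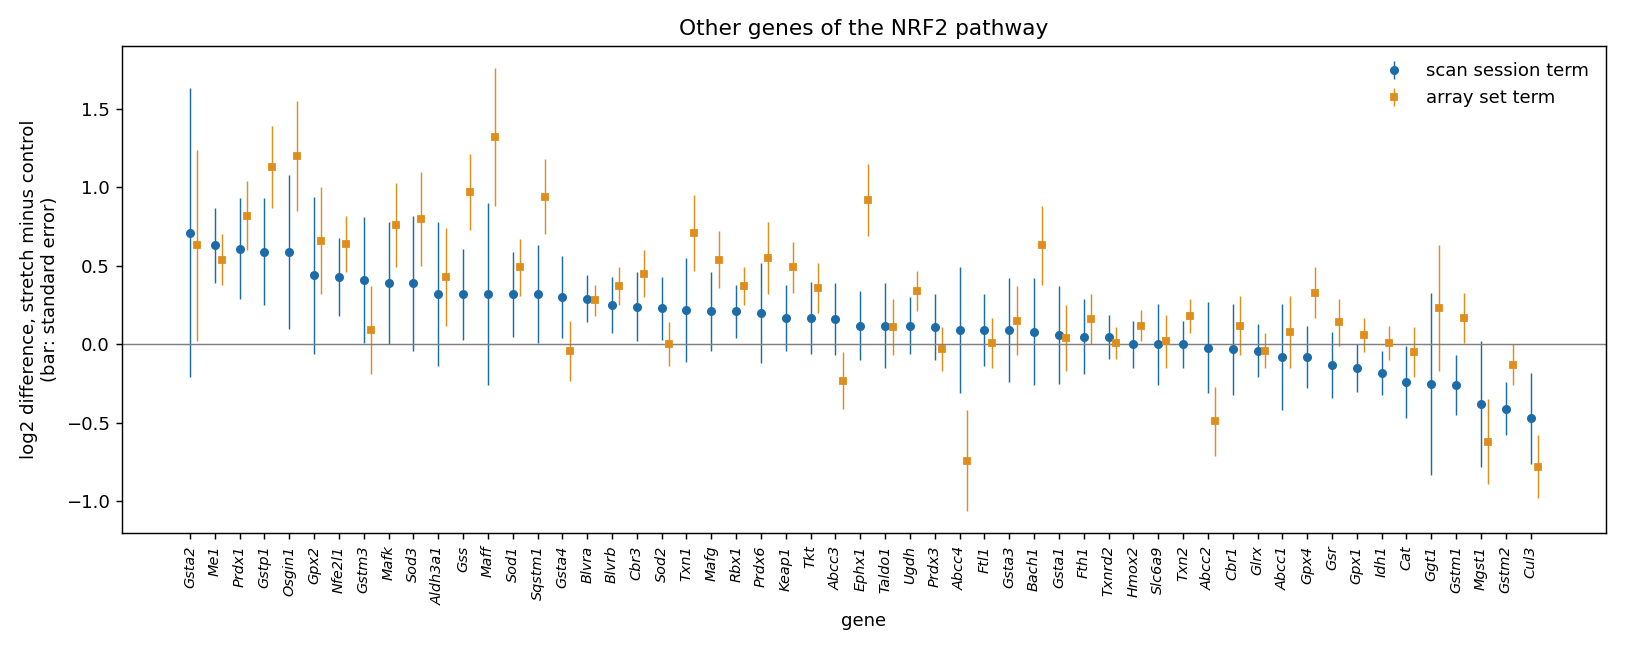
Log2 differences of stretch minus control (y axis, bars are SE) for 55 other genes of the NRF2 pathway (x axis), with the scan session term as circles and the array set term as squares. Of the 55, 39 lie above 0 with the session term, and Gstp1 at 1.13, Gss at 0.97 and Cul3 at -0.78 are among those called with the array set term.

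The genes whose levels ran most like those of the NRF2 genes were sought over the 21 samples, after each gene was centred on its mean in each scan session. Likeness was the Pearson correlation with the mean of the 8 measured genes, and the highest were Eif4a1 (r = 0.939), Itpa (r = 0.932), Manf (r = 0.922) and Psmd5 (r = 0.918), beside 1 probe with no gene name. Without stretch replicate 7 these were 0.907, 0.892, 0.883 and 0.869. For Nfe2l2 alone the most alike were Itpa (r = 0.911), Tigar (r = 0.895), C1qbp (r = 0.894), Tvp23b (r = 0.893) and Vps26a (r = 0.891). Centring also moves the mean of session 2, which held stretch alone, to 0, while its samples keep their spread. For Srxn1 they then ran from -1.68 to 2.06. The points also share their slides and scans.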

How the data were processed

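Each of 22 RNA samples (200 ng, Cy3) was read on a 1-colour Agilent array, per the labels. The deposited scanner files hold spot intensity, background-subtracted by the scanner software but with no scaling across arrays, per the file headers. A deposited table from the authors holds log2 values of 27873 probes, 10 of the 11 among them, and its baseline is unknown (column medians -0.11 to 0.40). It served as an alternative.

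Control and outlier spots were dropped (293 probe values lost). Processed signals were taken to log2, averaged per probe and set relative to the 75th percentile of their array. The filter kept 26881 probes that were detected on 4 or more of 22 arrays, and the brightest probe of each gene was used. Missing values were not imputed. Probes were named through RefSeq (GRCr8), 17998 by accession, 2362 by symbol and 616 by synonym.

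Fits used limma 3.58.1 in R 4.3.3 with eBayes, two-sided. The fit was checked on simulated data. In session 1 equal numbers mark a shared slide: deviations of equally numbered samples correlated at 0.51, 0.15 and 0.57. Array signal and sample number limit the precision. Genes and lists were chosen with earlier results of these data known. All 9 genes are named, with the called pathway genes of smallest p, up to 3 each way, Keap1, Bach1 and the small Maf genes. One gene of the pathway list is not reported here.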

Additional observations from a re-analysis of the deposited data

Results flagged for a closer look

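Among 32 sets of samples (8 genes in 4 groups), 3 held a sample set apart from the rest of its group by more than the critical gap at the 95% level, where chance alone gives about 1 in 20. Stretch replicate 7, the dimmest array, was set apart for Srxn1, with a level of 4.40, against 0.57 to 1.96 in the other 5 stretch samples. The same sample was set apart for Hmox1, with 3.57, against 0.92 to 1.78. Stretch with BIRB796 replicate 1 was set apart for Hmox1, with 1.05, against 0.44 to 0.54 in the other 3 samples of its group.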

How the results depend on the processing

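With the scan session as a term, 0 of the 8 genes were called in each of the 6 comparisons. Leaving out each sample in turn gave 0 throughout with that term. With the array set term in its place, a choice made after the data were seen for these repeats, leaving out each sample gave 1 to 5 calls for stretch against control and 0 to 3 for stretch with BIRB796 against stretch. For stretch against control the count was 2 with no session term, 3 with the array set term and 6 in sessions 2 and 3 alone, which was also added after the data were seen and turned Akr1b8 to 2.36. For stretch with BIRB796 against stretch it was 1 with no session term and 1 with the array set term, Akr1b8 both times. It was 4 in sessions 2 and 3 alone and 1 with trend and array weights, where 29 genes were called (0.124%). That gene was Hmox1, at -1.01 ± 0.19 (SE) with an adjusted p of 0.0406, while Akr1b8 had an adjusted p of 0.213. The trend and weights gave 2 for BIRB796 against control and 2 for stretch with BIRB796 against control. The replicate block, which is the slide in session 1, gave 0 for stretch against control, and equal numbers in stretch with BIRB796 and BIRB796, which do not pair the samples (correlations 0.53, 0.01, 0.08 and 0.07), gave 0. Genes called over all genes tested moved from 0 to 267, 1840 and 5945 for stretch against control with no session term, the array set term and sessions 2 and 3 alone, and from 0 to 132, 235, 29 and 3792 for stretch with BIRB796 against stretch with no session term, the array set term, trend and weights, and sessions 2 and 3 alone. Signal over background limits Gclm, and the number of arrays per session limits the rest.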
